A study of Homo sapiens with 12 samples.

Results

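The genes described here are 6 replication histone genes known to give polyadenylated transcripts in addition to the usual histone mRNA: HIST1H2AC, HIST1H2BD, HIST1H2BK, HIST1H1C, HIST1H4H and HIST2H2BE. They were chosen by name, matching Ensembl identifiers to GENCODE release 29 symbols, and make up 6 of the 25141 genes in the count table, which holds 58 other replication histone genes. All 6 passed the filter on low counts, which 12542 genes passed. The choice was made with values of siCIN85 against siNeg in view, so that comparison is given for them as a description, and the calls counted in it support nothing. RNA-seq was performed on HOS, a human osteosarcoma cell line, in 4 groups of 3 libraries. Mock cells carried an empty vector and upCIN85 cells carried the pRc/CMV2-Rukl plasmid, which encodes full-length CIN85; both were pools selected with geneticin. In siCIN85 cells, CIN85 was silenced with 3 pooled siRNAs, and siNeg cells were treated with an siRNA that has no target. CIN85 is an adaptor protein encoded by SH3KBP1. No source used here says whether the 3 libraries of a group came from separate cultures, so the P-values measure only the spread between these libraries, which may be technical.

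Histones are the proteins around which DNA is wound: pairs of H2A, H2B, H3 and H4 form the nucleosome core, and H1 binds the linker DNA. Most replication histone mRNAs are made in S phase and end in a conserved stem-loop, bound by the protein SLBP, in place of a poly(A) tail. Some of these genes can also be read through the stem-loop to a polyadenylation signal further downstream, and such transcripts are known from differentiated and non-dividing cells. A library primed with oligo-dT is meant to read the polyadenylated form, so the counts given here are no measure of the stem-loop form. How far stem-loop transcripts also contributed to these counts was not tested.

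The annotated ends of the 6 genes differed. HIST1H2AC, HIST1H2BD, HIST1H4H and HIST2H2BE had models with a 3′ UTR of up to 1187, 384, 1712 and 1801 nt. Each of these 4 held the letters of the histone stem-loop, searched as GGNNNTTNNNAGNNCC over the whole annotated 3′ UTR. The stem-loop is shown because it marks where the usual histone mRNA ends, with the matched 16 bases in capitals and 5 flanking bases on each side, read from GRCh38 on the strand of the gene.
HIST1H2AC: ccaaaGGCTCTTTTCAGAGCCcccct
HIST1H2BD: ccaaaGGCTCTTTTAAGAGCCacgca
HIST1H4H: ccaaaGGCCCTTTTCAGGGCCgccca
HIST2H2BE: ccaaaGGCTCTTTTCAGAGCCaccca
The matched bases were identical in HIST1H2AC and HIST2H2BE. They began 44, 37, 42 and 57 bases after the stop codon in HIST1H2AC, HIST1H2BD, HIST1H4H and HIST2H2BE, so each longest annotated transcript of HIST1H2AC, HIST1H4H and HIST2H2BE ran far past them. The longer HIST1H2BD transcript, spliced from 2 exons, did not contain the motif, whereas its 1-exon transcript with a 3′ UTR of 91 nt did. AATAAA, the most common polyadenylation signal, lay within the last 50 nt of 2 of 3 HIST1H2AC transcripts, 2 of 2 HIST1H2BD transcripts, 3 of 4 HIST1H4H transcripts and the 1 HIST2H2BE transcript. Among protein-coding histone genes of these families, 32 of 71 (45.1%) held the stem-loop letters in an annotated 3′ UTR. Most of the others have models that end at the stop codon, which left no sequence to search, so this share does not show how many lack a stem-loop. Of other protein-coding transcripts with a 3′ UTR of at least 100 nt, 58 of 52949 (0.11%) held the letters in its first 100 nt. The 2 shares are of genes and of transcripts and were searched over unlike lengths.

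HIST1H2BK and HIST1H1C differed from these 4 in that their GENCODE 29 models stop at the stop codon, with 0 nt of 3′ UTR. With such a model, reads at a polyadenylated end further downstream would not be assigned to the gene. The annotation behind the deposited counts is not given in the sources used here, so these 2 genes are described separately below. HIST1H2BK also shares sequence with its paralogs: 65.9% of the 75-base stretches in its last 300 nt occur in other H2B genes, against 5.31% in the short HIST1H2BD transcript and 0 in the transcripts of the other 4 genes.

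All the genes lie on chromosome 6 of GRCh38 except HIST2H2BE. HIST1H2AC (ENSG00000180573) spans 26124145 to 26139116 and HIST1H2BD (ENSG00000158373) 26158146 to 26171349, both on the plus strand, with a gap of 19030 bp between them. HIST1H1C (ENSG00000187837) spans 26055787 to 26056428, HIST1H4H (ENSG00000158406) 26277609 to 26285638 and HIST1H2BK (ENSG00000197903) 27146418 to 27146798, on the minus strand. HIST2H2BE (ENSG00000184678) spans 149884459 to 149886652 on the minus strand of chromosome 1. The antisense gene AL353759.1 overlaps HIST1H2BD and has no row in the count table.

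The 250 bases upstream of the RefSeq start (GRCh38.p14) are shown for the core histone genes HIST1H2AC, HIST1H2BD and HIST2H2BE, whose siCIN85 levels were high in the values below. Capitals in these 3 sequences mark ATTTGCAT (the octamer of H2B promoters), CCAAT and TATAAA on either strand, so ATGCAAAT, ATTGG and TTTATA are their reverse forms, and no matches overlap here.
HIST1H2AC, chr6:26123922-26124171, plus strand: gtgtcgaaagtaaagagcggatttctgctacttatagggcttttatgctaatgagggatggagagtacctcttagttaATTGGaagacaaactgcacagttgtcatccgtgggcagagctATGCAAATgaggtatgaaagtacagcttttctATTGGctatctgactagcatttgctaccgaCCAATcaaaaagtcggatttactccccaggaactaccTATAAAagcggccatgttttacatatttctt
HIST1H2BD, chr6:26157871-26158120, plus strand: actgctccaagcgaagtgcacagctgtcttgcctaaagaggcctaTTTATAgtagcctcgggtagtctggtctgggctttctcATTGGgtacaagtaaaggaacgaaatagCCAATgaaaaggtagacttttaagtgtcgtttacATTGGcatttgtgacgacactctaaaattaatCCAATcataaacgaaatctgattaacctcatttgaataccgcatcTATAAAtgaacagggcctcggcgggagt
HIST2H2BE, chr1:149886683-149886932, minus strand: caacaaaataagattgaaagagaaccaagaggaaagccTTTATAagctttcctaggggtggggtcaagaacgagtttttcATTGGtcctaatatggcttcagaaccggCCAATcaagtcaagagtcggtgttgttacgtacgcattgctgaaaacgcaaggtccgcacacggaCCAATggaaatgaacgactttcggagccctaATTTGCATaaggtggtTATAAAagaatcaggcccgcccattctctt
The octamer began 130 bases before the start of HIST1H2AC and 46 bases before that of HIST2H2BE. It was also at 46 bases before HIST1H2BK, and was not found in the windows of HIST1H2BD, HIST1H1C and HIST1H4H. CCAAT had 3 matches in HIST1H2AC, 4 in HIST1H2BD, 6 in HIST1H2BK, 1 in HIST1H1C and 3 in HIST2H2BE. HIST1H4H had no match to any of the 3 motifs in its window, which ran from 250 bases before to 50 bases after the start. Over 35116 RefSeq promoters of that length, 1.77% held the octamer, 34.6% CCAAT and 11.5% TATAAA. The 4 genes with high siCIN85 levels thus had no shared motif among the 3 searched.

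Depth was 5334731 to 6049458 counts per library in Mock and upCIN85 and 3540641 to 4174860 in siNeg and siCIN85, so 1 count is worth more CPM (counts scaled to the total of a library) in the siRNA libraries. SH3KBP1 was at 82.3 to 87.0 CPM in siNeg and 3.87 to 9.73 in siCIN85, and at 72.8 to 82.6 in Mock and 70.8 to 89.8 in upCIN85. The libraries labelled upCIN85 therefore overlapped Mock at this gene (log2FC 0.070, SE 0.16, adjusted P = 0.887, edgeR). The study reported overexpression of the CIN85 protein in its upCIN85 cells, measured by western blot. Whether transcripts of the plasmid are counted at SH3KBP1 in these 3′ libraries was not tested, so its counts do not measure the overexpression. Bone-forming cell markers were present, with summed levels of 754 to 1943 CPM over the 12 libraries. Their sum was 1212 to 1529 CPM in siNeg and 754 to 1076 in siCIN85, without overlap, and none of the 7 tested was called there by edgeR, 2 being higher and 3 lower at P below 0.05 before adjustment. With the replicate number as a block, 3 of the 7 were called lower, COL1A1 (blocked log2FC -0.72), COL1A2 (-1.26) and SPARC (-0.46). ALPL, at no more than 1.05 CPM in these 2 groups, was above siNeg in every siCIN85 library (log2FC 1.70, SE 0.74), without a call. In upCIN85 against Mock, ALPL and COL1A2 of this list were called higher, where 0.439% of all genes were. With the block, 3 of the 7 were called higher there and 2 lower, where 3.76% and 4.5% of all genes were. The part of these markers in the histone values was not tested. The blood cell markers that were counted, PTPRC and CD3E, summed to at most 0.288 CPM. The endothelial markers PECAM1, CDH5 and VWF summed to 0.576 to 6.78 CPM, and the epithelial markers EPCAM and CDH1 to 44.7 to 82.4 CPM. In bulk libraries, fewer cells of a type and less RNA per cell cannot be told apart.

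In siCIN85 cells, 4 of the 6 histone genes stood above siNeg in every library: HIST1H2AC, HIST1H2BD, HIST1H4H and HIST2H2BE. Their group means were 1.92-fold to 2.41-fold those of siNeg in the fit. The siCIN85 and siNeg libraries overlapped for the linker histone gene HIST1H1C, and HIST1H2BK, at 1 to 13 counts per library, was spread widely. The 6 genes were therefore not all higher together. All values below are CPM after TMM normalization, which corrects for differences in library composition.

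HIST1H2AC encodes a core histone H2A. Its level was 12.6, 14.9 and 15.9 CPM in Mock replicates 1 to 3, 16.2, 8.96 and 14.4 in upCIN85, 12.45, 12.2 and 11.2 in siNeg, and 26.8, 30.8 and 28.7 in siCIN85. All 3 siCIN85 libraries were above all 9 others, of which the highest was at 16.2 CPM. The siCIN85 mean was 28.8 ± 2.01 (SD, n = 3), against 11.9 ± 0.678 for siNeg, 14.5 ± 1.72 for Mock and 13.2 ± 3.77 for upCIN85. Mock and upCIN85 overlapped, while the siNeg libraries were all below the Mock libraries by a small margin. In siCIN85 against siNeg the log2FC was 1.27 (SE 0.20).

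HIST1H2BD encodes a core histone H2B, the partner of H2A in the nucleosome. It was at 4.88, 4.74 and 4.37 CPM in Mock, 4.01, 5.87 and 5.25 in upCIN85, 4.23, 3.65 and 4.41 in siNeg, and 9.91, 6.05 and 13.4 in siCIN85. Every siCIN85 library was above the other 9, but siCIN85 replicate 2 exceeded the highest of them, 5.87 CPM in upCIN85, only slightly. The siCIN85 libraries also varied most, with a mean of 9.79 ± 3.68 (SD, n = 3) against 4.10 ± 0.397 in siNeg. The log2FC was 1.26 (SE 0.29), from 15 to 17 counts per library in siNeg and 21 to 51 in siCIN85.

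HIST1H4H encodes histone H4. It was at 3.94, 4.40 and 3.50 CPM in Mock, 4.01, 4.07 and 4.07 in upCIN85, 2.74, 4.14 and 5.19 in siNeg, and 6.77, 8.36 and 8.15 in siCIN85. The 3 siCIN85 libraries were again above all 9 others, and Mock, upCIN85 and siNeg overlapped each other. The mean was 7.76 ± 0.867 (SD, n = 3) in siCIN85 and 4.02 ± 1.23 in siNeg, and the log2FC was 0.94 (SE 0.27).

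HIST2H2BE encodes another H2B and lies outside the chromosome 6 cluster. It was at 7.69, 3.55 and 3.50 CPM in Mock, 7.32, 4.40 and 8.14 in upCIN85, 4.73, 5.12 and 3.12 in siNeg, and 8.22, 7.21 and 13.9 in siCIN85. The siCIN85 libraries were above siNeg but not above all the rest: 3 of the 9 other libraries, 1 from Mock and 2 from upCIN85, reached at least the lowest siCIN85 level. Its log2FC was 1.17 (SE 0.37), the largest SE among the 4 genes, and siCIN85 replicate 3 had the highest level here as it did for HIST1H2BD.

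HIST1H1C encodes a linker histone H1. It was at 45.6, 44.5 and 33.1 CPM in Mock, 49.3, 48.1 and 45.1 in upCIN85, 44.8, 47.7 and 48.3 in siNeg, and 37.9, 54.8 and 50.5 in siCIN85. The siCIN85 libraries lay on both sides of the siNeg libraries. The log2FC was 0.021 (SE 0.15), with a 95% confidence interval from -0.30 to 0.34, and at 157 to 295 counts per library this gene had the most counts of the 6.

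HIST1H2BK encodes a further H2B. It was at 1.88, 1.69 and 2.27 CPM in Mock, 1.57, 1.30 and 2.20 in upCIN85, 2.49, 2.68 and 0.779 in siNeg, and 0.242, 2.31 and 1.58 in siCIN85. The siNeg and siCIN85 libraries each spread over several-fold ranges and overlapped. The log2FC of -0.58 (SE 0.58) had a 95% confidence interval from -1.80 to 0.63, which included both lower and higher levels. With single libraries left out it lay between -1.16 without siCIN85 replicate 2 and -0.051 without siCIN85 replicate 1.

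**Figure D1:**
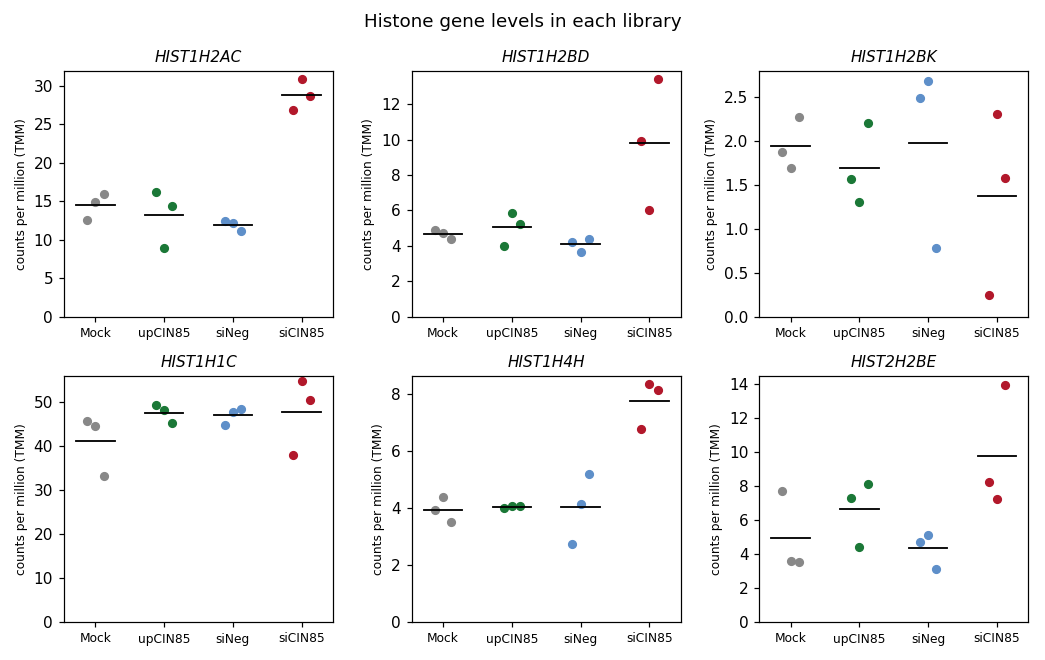
TMM-normalized CPM of the 6 genes (vertical axes, each starting at 0) in the 12 libraries by group; points are libraries and horizontal lines are group means. In HIST1H2AC, HIST1H2BD and HIST1H4H all 3 siCIN85 points lie above the other 9 points, and in HIST1H1C and HIST1H2BK the groups overlap.

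In siCIN85 against siNeg, 5 of the 6 genes had a log2FC above 0, where 49.2% of all genes tested had, and the median over the 6 was 1.06, against -0.0052 over all genes. An adjusted P-value of at most 0.05 in the higher direction was reached by 0.59% of all genes and by 2 of the 6, HIST1H2AC and HIST1H2BD. The replicate numbers pair the siRNA libraries, and with the number as a block 3.51% of all genes were called higher, as were 4 of the 6, HIST1H4H and HIST2H2BE being added. Libraries of siCIN85 all above those of siNeg were found in 9.89% of genes and in 4 of the 6. Because this contrast was used to choose the genes, these counts describe them and give no support. Without siNeg replicate 2, none of the 6 was called and the log2FC of HIST1H2AC and HIST1H2BD was 1.27 and 1.17. HIST1H2AC kept its call when any one of the other 11 libraries was left out. HIST1H2BD kept its call only without upCIN85 replicate 2 or siCIN85 replicate 2, and where it was lost its log2FC was between 0.96 without siCIN85 replicate 3 and 1.31 without siNeg replicate 3.

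Within replicate numbers, the log2 ratio of siCIN85 to siNeg CPM for replicates 1, 2 and 3 was 1.11, 1.34 and 1.36 for HIST1H2AC. It was 1.23, 0.73 and 1.60 for HIST1H2BD and 1.30, 1.01 and 0.65 for HIST1H4H. HIST2H2BE had ratios of 0.80, 0.49 and 2.16. These 4 genes were thus higher in 3 of 3 pairs each, yet the pair with the largest ratio was not the same in each of them. For HIST1H1C the ratios were -0.24, 0.20 and 0.064, and for HIST1H2BK, which had 1 count in siCIN85 replicate 1, they were -3.37, -0.22 and 1.02.

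**Figure D2:**
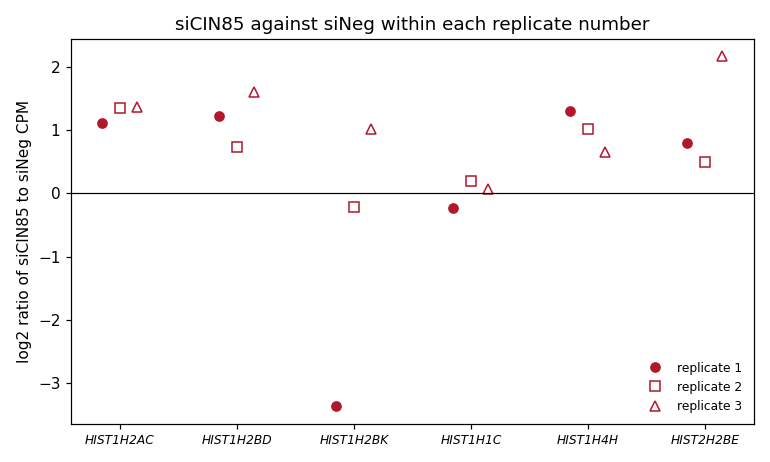
Log2 ratio of siCIN85 to siNeg CPM (vertical axis) for the 6 genes, with a symbol for each replicate number. All 3 symbols lie above 0 for HIST1H2AC, HIST1H2BD, HIST1H4H and HIST2H2BE, from 0.49 to 2.16, and on both sides of 0 for HIST1H1C and HIST1H2BK.

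Overexpression was not used in the choice of genes and was tested. None of the 6 differed between upCIN85 and Mock (0 of 6, edgeR's quasi-likelihood test with Benjamini-Hochberg adjustment), where 1.23% of all genes tested were called in either direction. Unadjusted P-values below 0.05, which 14.5% of all genes had, were found in 0 of 6, and DESeq2 also called 0, with no adjusted value for HIST1H2BK. Libraries of upCIN85 and Mock that did not overlap occurred in 20.7% of all genes and in 0 of 6. The median log2FC over the 6 was 0.076, against 0.0072 over all genes, with 4 above 0 and 2 below.

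The estimates limit how large an undetected change could be. For HIST1H2AC the upCIN85 log2FC was -0.14 (SE 0.19, edgeR adjusted P = 0.803), with a 95% confidence interval from -0.55 to 0.27. For HIST1H2BD it was 0.12 (SE 0.28, adjusted P = 0.894, interval -0.48 to 0.71), and for HIST1H4H 0.037 (SE 0.26, adjusted P = 0.969, interval -0.52 to 0.59). HIST2H2BE had the largest value, 0.44 (SE 0.35, adjusted P = 0.611), and an interval from -0.29 to 1.17. Without Mock replicate 1, the highest of its group, this value was 0.90, and without Mock replicate 2 it was 0.24. HIST1H1C was at 0.21 (SE 0.15, adjusted P = 0.551, interval -0.10 to 0.52) and HIST1H2BK at -0.20 (SE 0.48, adjusted P = 0.893, interval -1.21 to 0.81). The intervals of HIST1H2AC, HIST1H4H and HIST1H1C ended below 0.60 on the log2 scale, while that of HIST2H2BE still allowed a 2-fold increase.

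**Figure D3:**
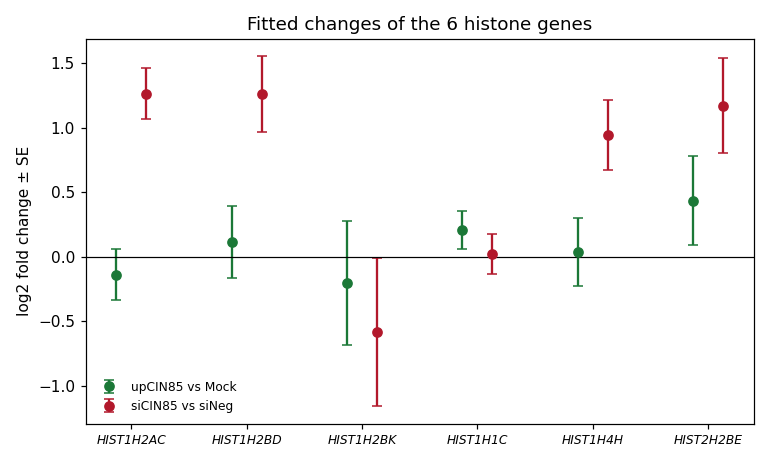
Fitted log2 fold change with its SE (vertical axis) of the 6 genes in upCIN85 vs Mock and in siCIN85 vs siNeg. The upCIN85 values lie between -0.20 and 0.44, and the siCIN85 values of HIST1H2AC, HIST1H2BD, HIST1H4H and HIST2H2BE between 0.94 and 1.27.

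Across the control groups, siNeg and Mock, 5 of the 6 genes overlapped. HIST1H2AC was the exception, with all siNeg libraries below all Mock libraries and a log2FC of -0.28 (SE 0.21). The siNeg libraries are shared with the knockdown comparison, so this value is given without a test. The share of all genes whose libraries did not overlap is not given for siNeg against Mock. That share was 20.7% in upCIN85 against Mock and 20.2% in siCIN85 against siNeg. The exception of HIST1H2AC therefore does not set the members apart from genes in general. The order of group means put siCIN85 first for all genes but HIST1H2BK, where it was last. Among Mock, upCIN85 and siNeg the order varied from gene to gene, and groups next to each other in that order overlapped for each of the 6.

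The pairwise correlations of log2 CPM over the 12 libraries show the same division as a description. The 6 pairs among HIST1H2AC, HIST1H2BD, HIST1H4H and HIST2H2BE had a Pearson r of 0.54 to 0.80, and the 9 pairs with HIST1H1C or HIST1H2BK had an r of -0.48 to 0.37. After the group means were removed, the range among the 4 was -0.48 to 0.28, so the likeness over the 12 libraries was not seen within groups. Libraries share depth and preparation, and these values carry no test.

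Of the 58 other replication histone genes in the table, 18 passed the filter on low counts. None of the 18 was called in either comparison with edgeR, and before adjustment 1 of them, HIST1H4C, had a P-value below 0.05 in upCIN85. HIST1H4C was at 617, 650 and 628 CPM in Mock and 893, 705 and 804 in upCIN85, without overlap (log2FC 0.34, SE 0.16, edgeR adjusted P = 0.319). In siCIN85 against siNeg, 11 had a log2FC above 0 and 7 below, with a median of 0.27. Unadjusted P-values below 0.05, found in 15.7% of all genes, belonged to 2 that were higher and 2 that were lower. With the replicate block, HIST1H2BJ was called higher and HIST1H4C lower, where 4.21% of all genes were called lower.

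The other genes were then divided by the annotated 3′ UTR that set the members apart, a division made after the values were seen and so described without a test. Of 18 counted genes with an annotated 3′ UTR over 150 nt, 10 were tested. In siCIN85 against siNeg 9 of these were above 0 and 1 below, with a median log2FC of 0.62. One further gene, HIST2H2BC, has no protein-coding model and was left out. The 7 tested genes with at most 150 nt had 1 above 0 and 6 below, and a median of -0.44. The filter on low counts bears on both classes. HIST1H2BC and HIST1H3E, with long ends, and HIST1H2AE, with a short one, passed it only with siCIN85 libraries included. All of these were above 0, with log2FC values of 0.49, 0.56 and 0.67. HIST1H2BH, with a 3′ UTR of 1679 nt, did not pass and was at 2.24, 1.46 and 1.82 CPM in siNeg and 0.483, 0.577 and 1.05 in siCIN85. It was the only untested gene with a long end whose siCIN85 and siNeg libraries did not overlap. In upCIN85 against Mock the medians of these classes were 0.014 and 0.060. Among the genes with long annotated ends, HIST1H2BJ, an H2B gene, rose from 6.22, 9.99 and 7.53 CPM in siNeg to 13.05, 15.6 and 13.2 in siCIN85 with the block (log2FC 0.81, SE 0.26, edgeR adjusted P = 0.141 without the block and 0.025 with it). HIST1H3H, an H3 gene, was at 3.98, 3.90 and 3.38 CPM in siNeg and 6.04, 5.48 and 6.84 in siCIN85 (log2FC 0.70, SE 0.26, adjusted P = 0.198). Of the tested genes with long ends, HIST1H2BF went the other way, at -0.55 (SE 0.60).

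Of the genes with short or no annotated 3′ UTR, HIST1H4C, an H4 gene, had the highest counts of all. It was at 590, 724 and 952 CPM in siNeg and 433, 597 and 636 in siCIN85, with overlapping libraries (log2FC -0.44, SE 0.16, edgeR adjusted P = 0.177 without the block and 0.005 with it). HIST1H1D, another linker histone gene, was at -0.68 (SE 0.36) and HIST1H1E at -0.51 (SE 0.40). Neither passed the test with or without the block, and of the 7 only HIST1H4C was called, with the block. The part of the annotated end in these differences was not tested.

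**Figure D4:**
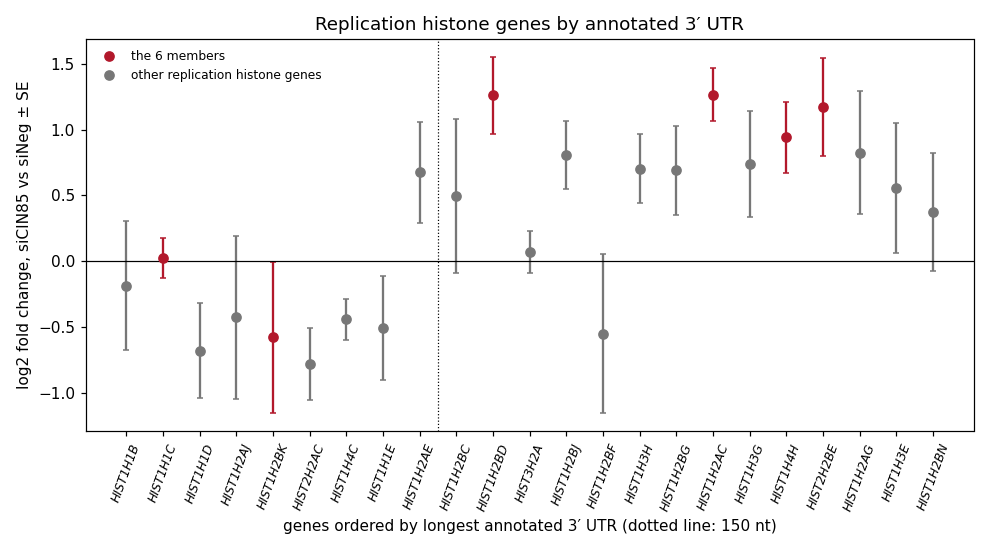
Fitted log2 fold change in siCIN85 vs siNeg with its SE (vertical axis) for the replication histone genes tested that have a protein-coding model, ordered by their longest annotated 3′ UTR; the dotted line marks 150 nt. To the right of it 9 of the 10 other genes lie above 0, and to the left 6 of the 7 other genes lie below.

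Histone genes often stand as divergent pairs that share a promoter region, and 3 of the 6 had such a partner in the annotation. HIST2H2BE and the H2A gene HIST2H2AC lie 323 bp apart, and they differed in direction: HIST2H2AC was at 6.97, 9.74 and 7.79 CPM in siNeg and 3.62, 4.04 and 6.58 in siCIN85, all below siNeg (log2FC -0.78, SE 0.28, edgeR adjusted P = 0.177). In GENCODE 29, HIST2H2AC ends at its stop codon and HIST2H2BE runs 1801 nt beyond it. HIST1H2AC and the H2B gene HIST1H2BC lie 219 bp apart, and HIST1H2BC was at 1.00, 1.95 and 2.08 CPM in siNeg and 2.66, 2.31 and 2.10 in siCIN85 (log2FC 0.49, SE 0.59). The partner of HIST1H2BK, HIST1H2AH at 331 bp, did not pass the filter. Apart from genes with histone symbols, 7 genes within 50 kb of a member were tested, with log2FC values from -1.31 to 1.21 in siCIN85 and from -0.37 to 0.32 in upCIN85. Among them, AL031777.3 spans the histone genes HIST1H3D and HIST1H2AD on the same strand, and was at 0.61 (SE 0.29) in siCIN85. None of the 7 was called in either comparison with edgeR, with or without the block, and 1 of them had P below 0.05 before adjustment in siCIN85.

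Replication-independent histone variants are mostly encoded by ordinary polyadenylated mRNAs and stand as a comparison. Of 12 such genes 11 were tested and none was called in siCIN85 against siNeg, where their median log2FC was -0.088 with 4 above 0 and 7 below. With the block 1 was called lower, the only one with an unadjusted P-value below 0.05, H2AFY (log2FC -0.33, SE 0.094), which encodes a macroH2A. In upCIN85 against Mock, 1 of the 11, H2AFX, fell (log2FC -0.72, SE 0.15, edgeR adjusted P = 0.0261), where 0.789% of all genes were called lower. It encodes H2A.X, the variant phosphorylated at DNA breaks, and its mRNA is known to have both stem-loop and polyadenylated forms. Its libraries in Mock were at 171, 150 and 129 CPM and those in upCIN85 at 109, 93.7 and 69.7. With the block, 2 of the 11 variants were called lower in upCIN85, where 4.5% of all genes were.

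The genes of histone mRNA 3′ end formation and decay were all tested, 22 of 22. In siCIN85 against siNeg 9 were above 0 and 13 below, with a median log2FC of -0.060, and 1 was called, where 0.454% of all genes were called lower. This was CASP8AP2, which encodes a protein of histone locus bodies that takes part in histone mRNA processing. It fell from 55.0, 55.8 and 56.6 CPM in siNeg to 33.6, 41.2 and 38.7 in siCIN85 (log2FC -0.56, SE 0.12, edgeR adjusted P = 0.0281). SLBP itself was at -0.17 (SE 0.14, adjusted P = 0.595). In upCIN85 against Mock 0 of the 22 were called, and unadjusted P-values below 0.05 were found for 1 higher and 1 lower gene. With the block 1 of the 22 was called lower there, where 4.5% of all genes were. NPAT, which encodes the activator of histone gene transcription in S phase, was at -0.42 (SE 0.14, adjusted P = 0.142).

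Genes of histone chaperones and acetyl handling were not called in either comparison, 0 of 20 in each with edgeR without the block. Their median log2FC was 0.038 in siCIN85 and 0.15 in upCIN85, and unadjusted P-values below 0.05 were found for 1 gene in siCIN85 and 3 in upCIN85. With the block, 0 were called in siCIN85. In upCIN85 it called 1 of them higher and 2 lower, where 3.76% and 4.5% of all genes were. Of 16 histone deacetylase genes, none was called in either comparison. HDAC9, the one called with the block in siCIN85, was at 0.61 (SE 0.17, edgeR adjusted P = 0.0826 without the block and 0.00637 with it). Before adjustment, 4 deacetylase genes in siCIN85 and 0 in upCIN85 had P-values below 0.05.

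Most S phase genes had lower estimates in siCIN85 than in siNeg, and few passed the test. Of 29 tested, 22 were below 0 and 7 above, with a median log2FC of -0.13, 7 had all siCIN85 libraries below siNeg, as had 10.3% of all genes, and 1 was called. That gene was DUT, a dUTPase, at 403, 388 and 344 CPM in siNeg and 237, 284 and 261 in siCIN85 (log2FC -0.54, SE 0.10, edgeR adjusted P = 0.0251). With the block 3 were called lower, MCM6 (log2FC -0.43) and GMNN (-0.58) being added. In upCIN85 13 were above 0 and 16 below, and CCNA2, which encodes cyclin A2, fell by 0.46 on the log2 scale (SE 0.11, adjusted P = 0.0499). The part of the S phase genes in the members' levels was not tested.

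Among 16 counted CDK inhibitor and quiescence genes, none was called in either comparison by edgeR. Before adjustment, P-values below 0.05 were found for 2 higher and 3 lower genes in siCIN85, and for 2 higher and 1 lower in upCIN85. CDKN1A, which encodes the CDK inhibitor p21, was at 9.46, 7.80 and 19.5 CPM in siNeg and 30.0, 16.4 and 44.7 in siCIN85 (log2FC 1.32, SE 0.34, adjusted P = 0.0642 without the block and 0.000193 with it). Its highest library was siCIN85 replicate 3, as for HIST1H2BD and HIST2H2BE. With the block, CDKN1A and BTG1 were called higher in siCIN85, and CDKN1B, CDKN2C and RBL1 lower. The BTG1 libraries of siCIN85 and siNeg overlapped. In upCIN85 against Mock the block called 2 genes of this list higher and 1 lower, with BTG1 among the higher (blocked log2FC 0.38). The part of these genes in the members' levels was not tested either.

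The 8 genes outside the histone families whose profile over the 12 libraries was most like the mean standardized profile of the 6 were NOS1AP, UBE2V1, NUP93, MAF1, AC025171.1, NPC2, AC026124.1 and ZNF550, with a Pearson r of 0.83 to 0.88. The members themselves had an r with that mean of 0.80 for HIST1H2AC, 0.73 for HIST1H2BD, 0.82 for HIST1H4H and 0.83 for HIST2H2BE. HIST1H1C was at 0.54 and HIST1H2BK at 0.016. All 6 are part of the mean, so none of these values is independent of it. NOS1AP had a log2FC of 1.53 in siCIN85 against siNeg and UBE2V1 of 0.87, and the other 6 genes were at 0.22 to 0.73. They are the top of a ranking over all genes tested and the ranking has no test.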

How the data were processed

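RNA-seq libraries of 12 HOS samples in 4 groups of 3 were used, grouped and numbered by their labels. Per the labels and the study's methods, the authors prepared QuantSeq 3′ FWD libraries with UMIs, sequenced 75-bp single-end reads on a NextSeq instrument and summarized them per gene with featureCounts. Their processing notes name GRCh38, cutadapt 4.3, STAR 2.7.3a, Picard 2.25.6 and Subread 2.0; the gene annotation, the strand setting and any collapsing of UMIs are not given in the sources used here. The deposited values are raw read counts per gene, not normalized.

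Counts were fitted with edgeR 4.0.16 in R 4.3.3 on all 12 libraries: filterByExpr (minimum count 10, minimum total 15) kept 12542 genes, TMM factors were applied, and the quasi-likelihood test used a mean for each group with 8 residual degrees of freedom. P-values were two-sided and Benjamini-Hochberg adjusted over all genes tested, with a threshold of 0.05. SE was approximated as the size of the log2FC over the root of its F statistic, and intervals are 95%. The members and gene lists were chosen with earlier results of these data known. Named genes are the members, replication and variant histone genes that passed the filter, list genes called in either comparison, neighbours within 50 kb, the 8 genes with the most similar profile and SH3KBP1; some are given as counts and ranges only, and others as values because a sentence needed them. Gene symbols and positions are from GENCODE 29, in which 95 identifiers had no match, and promoters from RefSeq GRCh38.p14, in which all 6 members were found by their current symbols. DESeq2 1.42.0, the tool of the study, RLE scaling, other filters, fits of 6 libraries, the replicate block and leaving out each library were alternatives. The test was run on simulated counts before use. No pair of replicates was a duplicate: for all 12 pairs within groups the chi-square per degree of freedom was between 3.35 and 6.58. An exact permutation test of 3 against 3 cannot go below 0.1. Deviations from group means correlated between same-numbered siNeg and siCIN85 libraries with r of 0.353, 0.269 and 0.446 for replicates 1, 2 and 3. The numbers come from the labels, so they were taken as pairs in the alternative with the replicate block. The main fit has no block, so its SEs, intervals and adjusted P-values do not use the pairing.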

Additional observations from a re-analysis of the deposited data

How the results depend on the processing

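The number of members called in siCIN85 against siNeg was 2 with all 12 libraries. It was 1 in a fit of only the 6 siRNA libraries, in which 5 members passed the filter, 1 with DESeq2 on these libraries, 3 with no filter on low counts and 4 with the replicate block. With each library left out in turn it ranged from 0 to 2. Of all genes, 1.04% were called in either direction in the main fit and 7.72% with the block. For the other settings this share is not given, so these counts do not set the members apart from genes in general. The cause of the differences was not tested. HIST1H2BD was the gene lost in both fits of 6 libraries, HIST2H2BE was added without the filter, and HIST1H4H and HIST2H2BE were added by the block. The median log2FC of the members in this comparison ranged from 0.86 to 1.14 over the left-out libraries.

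In upCIN85 against Mock, 0 members were called under every alternative run, and the median ranged from 0.014 to 0.12 over the left-out libraries. Single log2FC values near 0 changed sign. HIST1H1C in siCIN85 ranged from -0.099 to 0.16 over the left-out libraries. In upCIN85, HIST1H4H ranged from -0.043 to 0.12, HIST1H2AC from -0.31 to 0.080 and HIST1H2BD from -0.0075 to 0.25. HIST2H2BE in upCIN85 ranged from 0.24 to 0.90 and HIST1H2BK in siCIN85 from -1.16 to -0.051 with no change of sign. The same-numbered Mock and upCIN85 libraries had deviations correlated at r of 0.326, 0.227 and 0.0989, and each correlated best with its own number. Mock and upCIN85 libraries with unlike numbers were at r of -0.298 to 0.0303. The block raised the genes called in upCIN85 against Mock from 154 to 1035 without calling a member. Of the other replication histone genes it called HIST1H4C higher (adjusted P = 0.0207, edgeR). RLE scaling and a minimum of 10 counts in every library, which removed HIST1H2BK, left the number of members called in both comparisons as it was.

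Depth limits HIST1H2BK, with 1 to 13 counts per library, more than any other member, and HIST1H2BD, HIST1H4H and HIST2H2BE had 11 to 53 counts.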
